A study of Mus musculus with 8 samples.

Results

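Complex I of the respiratory chain, NADH:ubiquinone oxidoreductase, was followed through its nuclear genes in cerebella of mice with and without Atm, the gene of the protein kinase lost in ataxia-telangiectasia. Its genes were taken by symbol, as every protein-coding gene whose name begins with Ndufa, Ndufb, Ndufc, Ndufs or Ndufv. This gave 48 of the 56691 genes in the count table. They comprised 37 subunits, 8 Ndufaf assembly factors and 3 genes that carry the name without belonging to the modules of the complex. Bulk RNA-seq libraries came from the cerebella of 4 Atm-WT mice (genotype ATM +/+, mice 2M, 7M, 13M and 32M) and 4 Atm-KO mice (ATM -/-, mice 1M, 7F, 11M and 12M), 1 library a mouse. All were bred from heterozygous B6;129S4-Atmtm1Bal/J parents, the Atm-WT mice being littermates, and were 6 months old as given by the study. The allele is carried in the germline, so other tissues of the Atm-KO mice carried it as well as the cerebellum.

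Complex I is the largest enzyme of the respiratory chain and its usual entry point for electrons from NADH. Its peripheral arm takes the electrons from NADH at a flavin in the N module, passes them along iron-sulphur clusters and hands them to ubiquinone in the Q module, while the ND1, ND2, ND4 and ND5 modules of the membrane arm pump protons. Core subunits carry out these reactions and are encoded partly in the nucleus and partly in mitochondrial DNA, accessory subunits surround and stabilize them, and assembly factors help to build the enzyme without remaining in it. Neurons draw heavily on oxidative phosphorylation, and inherited defects of complex I often damage the brainstem, basal ganglia and cerebellum.

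Each library held between 65967130 and 88030300 counts. In CPM, counts scaled to a common library size by TMM, the trimmed mean of M-values, Atm itself was at 67.6, 80.0, 79.4 and 59.0 in Atm-WT mice 2M, 7M, 13M and 32M and at 51.1, 44.3, 41.1 and 44.9 in Atm-KO mice 1M, 7F, 11M and 12M. The genotypes did not overlap, and Atm transcript was still counted in every Atm-KO library (log2 fold change −0.66, standard error 0.10, adjusted p = 0.0775 by edgeR's quasi-likelihood test). Granule cell markers summed to between 4172 and 5050 CPM in Atm-WT and between 4354 and 6031 CPM in Atm-KO libraries, and Purkinje cell markers to between 8426 and 10287 and between 8285 and 9847 CPM, with no marker of either list at 0. Atm-WT mouse 32M and Atm-KO mouse 12M stood apart from the other libraries, with the 2 values furthest from 0 on a surrogate variable, an estimate of variation that genotype does not explain (0.435 and −0.865, the others lying between −0.0585 and 0.162). Results are therefore also given without these mice.

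Transcripts of the complex I subunits had slightly lower levels in cerebella of Atm-KO mice, without any of them passing the test adjusted over all genes. Of the 37 subunits, 35 had a negative log2 fold change, and the median of the 37 was −0.18, which is a level 11.5% lower, against −0.02 over all 22423 genes tested and −0.06 over the 15322 protein-coding genes tested. The 8 Ndufaf assembly factors had a median of −0.02, with 5 negative and 3 positive. Subunits and assembly factors were not tested against each other.

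Of the 48 genes, 47 were tested, and edgeR's quasi-likelihood test called 0 of them at an adjusted p under 0.05, where it called 0.0178% of all genes tested. At an unadjusted p under 0.05, 14 of 37 subunits were lower in Atm-KO, against 8.48% of all genes tested, and 0 were higher, against 11.7%. None of the assembly factors reached that limit. DESeq2, which called more genes, had adjusted p values under 0.05 for 2 subunits, both lower (Ndufa11, adjusted p = 0.0233, and Ndufb3, adjusted p = 0.0433), where it called 2.44% of its genes lower and 5.05% higher. It called 0 subunits higher. limma voom called 0 subunits at an adjusted p under 0.05 and had 11 (29.7%) lower at an unadjusted p under 0.05, against 8.21% of all genes tested. In 2 of 37 subunits (Ndufb11 and Ndufa9) every Atm-KO library lay below every Atm-WT library, near the background of 5.12% of genes, and in 0 did every one lie above, against 6.47%.

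**Figure D1:**
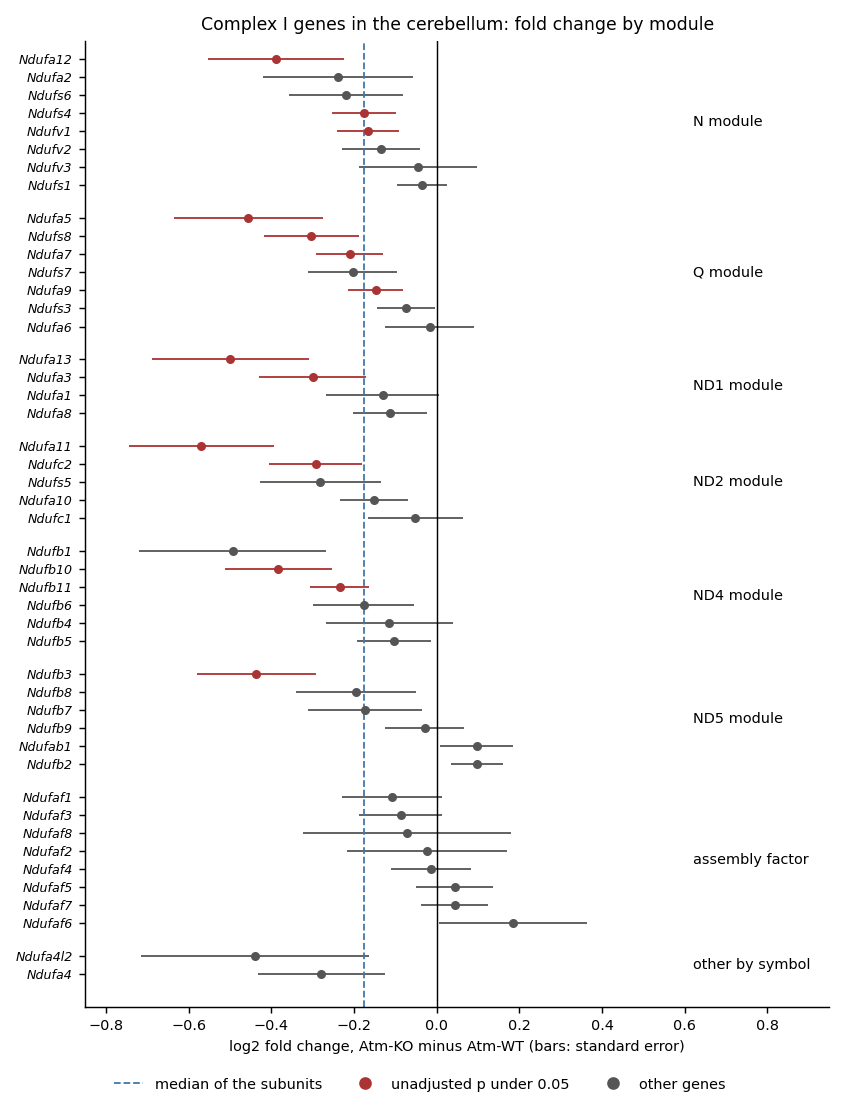
Log2 fold change between Atm-KO and Atm-WT cerebella (horizontal axis, edgeR, with standard errors) for 46 of the 47 genes tested, grouped by the module of complex I they belong to. Red points mark the 14 subunits with an unadjusted p under 0.05, and the dashed line their median over all 37 subunits, −0.18. Only Ndufab1 and Ndufb2 among the subunits lie to the right of 0.

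By module, the lowest median was that of the ND2 module, at −0.28 over 5 subunits, with Ndufa11 and Ndufc2 at an unadjusted p under 0.05. The ND1 module had a median of −0.22 over 4 subunits (Ndufa3 and Ndufa13 under the limit) and the ND4 module −0.21 over 6 (Ndufb10 and Ndufb11). The N module, at −0.17 over 8 subunits, had Ndufa12, Ndufs4 and Ndufv1 under the limit, and the Q module, at −0.17 over 8, had Ndufa5, Ndufa7, Ndufa9 and Ndufs8. The ND5 module was nearest to 0, with −0.10 over 6 subunits and Ndufb3 alone under the limit. Of the subunits with a larger p, Ndufa2, Ndufs1, Ndufs6, Ndufv2 and Ndufv3 of the N module lay between −0.24 and −0.04, and Ndufa6, Ndufs3 and Ndufs7 of the Q module between −0.20 and −0.02. Ndufa1 and Ndufa8 of the ND1 module were at −0.13 and −0.11, and Ndufa10, Ndufc1 and Ndufs5 of the ND2 module between −0.28 and −0.05. In the ND4 module Ndufb1 was at −0.49 with a wide standard error of 0.23, and Ndufb4, Ndufb5 and Ndufb6 lay between −0.18 and −0.10, while Ndufab1, Ndufb2, Ndufb7, Ndufb8 and Ndufb9 of the ND5 module lay between −0.20 and 0.10. The modules were not tested against each other. Without Atm-WT mouse 32M the medians lay closer to 0, at −0.10 for N, −0.09 for Q, −0.13 for ND1, −0.20 for ND2, −0.12 for ND4 and −0.05 for ND5, and the subunits lower at an unadjusted p under 0.05 then numbered 0, 0, 0, 1, 2 and 1, against 6.96% of all genes tested.

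The subunits moved together from library to library, and the difference between the genotypes was of the size of that movement. Relative to the Atm-WT mean of each gene, the median log2 level of the subunits was 0.10 in mouse 2M, −0.16 in 7M, −0.13 in 13M and 0.20 in 32M, and among Atm-KO mice −0.15 in 1M, −0.04 in 7F, −0.17 in 11M and −0.26 in 12M. Atm-WT mice 7M and 13M thus lay within the range of the Atm-KO mice, and Atm-WT mice 2M and 32M above all of them. Mouse 32M had the highest level among Atm-WT libraries for 30 of the 37 subunits, and mice 7M and 13M the lowest for 20 and 14. Among Atm-KO libraries, 7F, the 1 mouse labelled F, had the highest level for 27 subunits and 12M the lowest for 20. The sex of mouse 7F and its other features cannot be told apart. Over the subunits, the median coefficient of variation was 15.7% among Atm-WT mice (from 1.59% for Ndufb2 to 30.2% for Ndufb1) and 9.16% among Atm-KO mice.

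Without Atm-WT mouse 32M the median of the subunits was −0.10, and 4 subunits (10.8%) were lower at an unadjusted p under 0.05 in place of 14, against 6.96% of all genes tested. That number was 5 without Atm-WT mouse 2M, 5 without Atm-KO mouse 11M, 6 without 1M and 7 without 12M, with medians from −0.18 to −0.15, where between 5.67% and 6.68% of all genes tested were lower at that limit. With 32M and 12M both left out, an alternative chosen after seeing the data, the median was −0.07, 25 of 37 subunits were negative and 2 (5.41%) were lower at an unadjusted p under 0.05, against 6.05% of all genes tested.

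**Figure D2:**
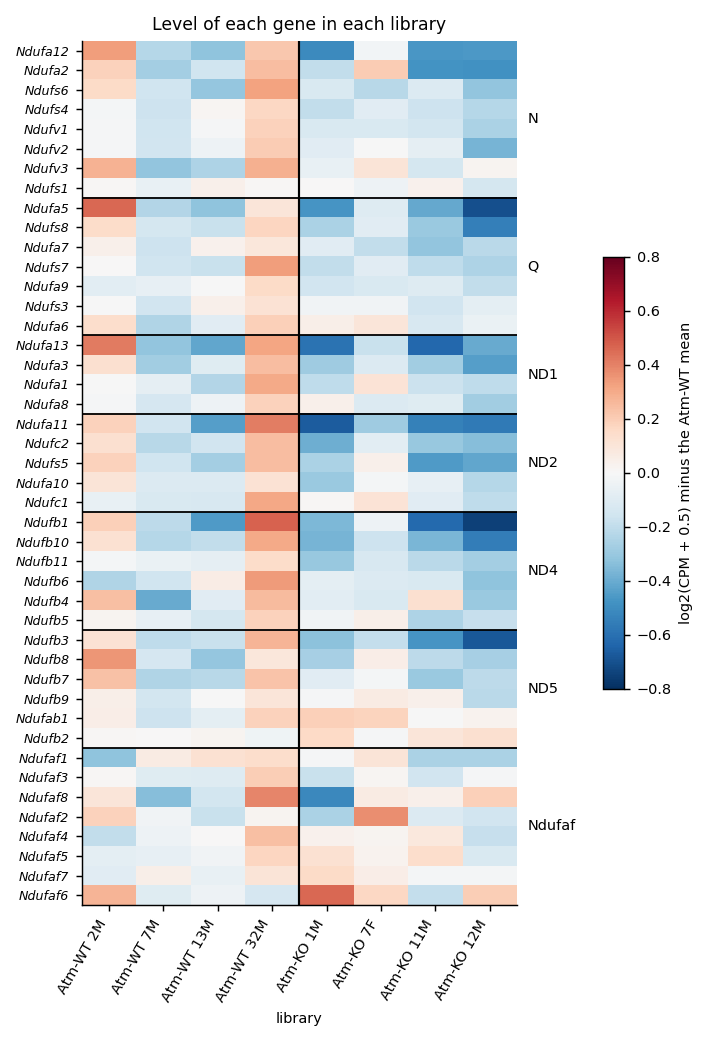
Level of 36 of the 37 subunits (6 modules) and 8 Ndufaf assembly factors in each of the 8 libraries, as log2(CPM + 0.5) minus the Atm-WT mean of the gene, with red higher and blue lower. The columns of Atm-WT mice 2M and 32M are mostly red and those of 7M and 13M mostly pale blue, and Atm-KO mouse 12M has the lowest value of its genotype in 20 subunits.

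Among the core subunits of the N module, Ndufs1, which carries several of the iron-sulphur clusters of the peripheral arm, was at 191, 182, 195 and 191 CPM in Atm-WT mice 2M, 7M, 13M and 32M and at 190.3, 185, 194 and 172 CPM in Atm-KO mice 1M, 7F, 11M and 12M. The genotypes overlapped nearly throughout (190.0 ± 5.44 against 185 ± 9.57 CPM, SD, n = 4 each), with a log2 fold change of −0.04. Ndufv1, which holds the flavin and binds NADH, was at 110.5, 99.5, 110.3 and 126 CPM in Atm-WT and at 102, 102, 100.5 and 93.1 CPM in Atm-KO mice. All Atm-KO libraries lay below 3 of the 4 Atm-WT libraries, the lowest Atm-WT library being 7M (log2 fold change −0.17, standard error 0.08, edgeR unadjusted p = 0.0484, adjusted p = 0.244). Ndufv2, the partner of Ndufv1 with a cluster of its own, was at 73.6, 66.5, 71.8 and 85.2 CPM in Atm-WT and at 69.4, 73.7, 70.4 and 57.2 CPM in Atm-KO mice. Here 3 of the 4 Atm-KO libraries lay within the Atm-WT range, and 12M lay below it (log2 fold change −0.13, adjusted p = 0.447 by edgeR).

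Among the core subunits of the Q module, Ndufs3, in the peripheral arm, was at 53.2, 47.8, 54.9 and 57.8 CPM in Atm-WT and at 52.3, 52.3, 48.0 and 50.6 CPM in Atm-KO mice, all 4 of which lay inside the Atm-WT range (log2 fold change −0.07). Ndufs7, which carries the last cluster before ubiquinone, was at 42.8, 38.1, 37.6 and 53.9 CPM in Atm-WT and at 37.1, 40.0, 36.9 and 35.9 CPM in Atm-KO mice. Mouse 7F lay above Atm-WT mice 7M and 13M, and the other Atm-KO mice below every Atm-WT mouse (log2 fold change −0.20, standard error 0.11, adjusted p = 0.311 by edgeR), and 49.4% of its exons overlap Gamt on the opposite strand. Ndufs8, which holds the clusters that lead up to it, was at 31.3, 25.6, 24.9 and 31.9 CPM in Atm-WT and at 23.6, 26.5, 23.0 and 19.2 CPM in Atm-KO mice. It had the largest fold change of the core subunits, with 7F alone of the Atm-KO mice above an Atm-WT mouse (log2 fold change −0.30, standard error 0.11, edgeR unadjusted p = 0.0223, adjusted p = 0.179). Over the 7 nuclear core subunits the median was −0.13, with 7 negative and 2 lower at an unadjusted p under 0.05, against 8.48% of all genes tested. Without mouse 32M it was −0.08, with 0 under that limit, against 6.96% of all genes.

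The accessory subunits with the smallest p were led by Ndufb11, an X-linked membrane subunit of the ND4 module. It was at 48.9, 47.6, 47.1 and 54.9 CPM in Atm-WT mice 2M, 7M, 13M and 32M and at 40.0, 45.2, 42.6 and 40.9 CPM in Atm-KO mice 1M, 7F, 11M and 12M. The genotypes did not overlap (log2 fold change −0.23, standard error 0.07, edgeR unadjusted p = 0.00707, adjusted p = 0.127). Of its exon bases 67.8% lie opposite exons of Rbm10, so that, with the strand setting of the counting not stated, reads of the 2 genes cannot be told apart there. Ndufb3, of the ND5 module, was at 14.1, 11.2, 11.5 and 15.8 CPM in Atm-WT and at 10.3, 11.4, 9.26 and 7.95 CPM in Atm-KO mice. Only 7F among the Atm-KO mice lay above an Atm-WT mouse, 7M (log2 fold change −0.44, standard error 0.14, adjusted p = 0.145 by edgeR). Ndufb10, of the ND4 module, was at 27.2, 21.2, 21.7 and 30.9 CPM in Atm-WT and at 19.2, 22.2, 19.3 and 16.8 CPM in Atm-KO mice. Again 7F alone overlapped the Atm-WT mice, lying above 7M and 13M (log2 fold change −0.38, standard error 0.13, adjusted p = 0.149 by edgeR).

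The largest fold changes were those of Ndufa11 and Ndufa13, both small subunits of the membrane arm. Ndufa11, a multi-pass membrane protein of the ND2 module, was at 14.9, 11.7, 9.52 and 17.6 CPM in Atm-WT and at 8.06, 10.6, 8.82 and 8.67 CPM in Atm-KO mice. Atm-KO mouse 7F lay above Atm-WT mouse 13M, and the other Atm-KO mice below every Atm-WT mouse (log2 fold change −0.57, standard error 0.18, adjusted p = 0.128 by edgeR). Ndufa13, of the ND1 module, was at 26.8, 16.0, 14.9 and 25.0 CPM in Atm-WT and at 13.1, 17.6, 12.8 and 15.02 CPM in Atm-KO mice. Mice 2M and 32M stood far above the other 6 libraries, among which the genotypes overlapped (log2 fold change −0.50, standard error 0.19, adjusted p = 0.179 by edgeR), and 43.3% of its exon bases lie opposite Tssk6. Over all alternative settings the log2 fold change lay between −0.69 and −0.39 for Ndufa11 and between −0.61 and −0.35 for Ndufa13.

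Ndufa9, a Q module subunit with a bound nucleotide, was the other gene whose genotypes did not overlap. It was at 85.7, 86.9, 90.9 and 102 CPM in Atm-WT and at 81.9, 83.6, 84.8 and 79.4 CPM in Atm-KO mice (log2 fold change −0.15, standard error 0.07, edgeR unadjusted p = 0.0478, adjusted p = 0.243). It was named after its values were seen. Ndufa1, the other X-linked subunit, was at 10.4, 9.86, 8.76 and 12.9 CPM in Atm-WT and at 8.94, 11.2, 9.17 and 8.94 CPM in Atm-KO mice, with the genotypes overlapping (log2 fold change −0.13, adjusted p = 0.627 by edgeR).

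The only subunits with positive fold changes were Ndufb2 and Ndufab1, of the ND5 module. Ndufb2 was at 36.5, 36.3, 36.8 and 35.4 CPM in Atm-WT and at 40.5, 36.0, 38.9 and 39.7 CPM in Atm-KO mice. Of the Atm-KO mice, 3 lay above every Atm-WT mouse and 7F below 3 of them (log2 fold change 0.10, standard error 0.06, adjusted p = 0.405 by edgeR). Ndufab1, the mitochondrial acyl carrier protein, which also serves fatty acid synthesis in the organelle, was at 40.6, 34.8, 37.1 and 44.6 CPM in Atm-WT and at 44.6, 44.4, 39.0 and 39.9 CPM in Atm-KO mice, with wide overlap (log2 fold change 0.10, adjusted p = 0.564). Both signs held under each of the 22 settings run.

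**Figure D3:**
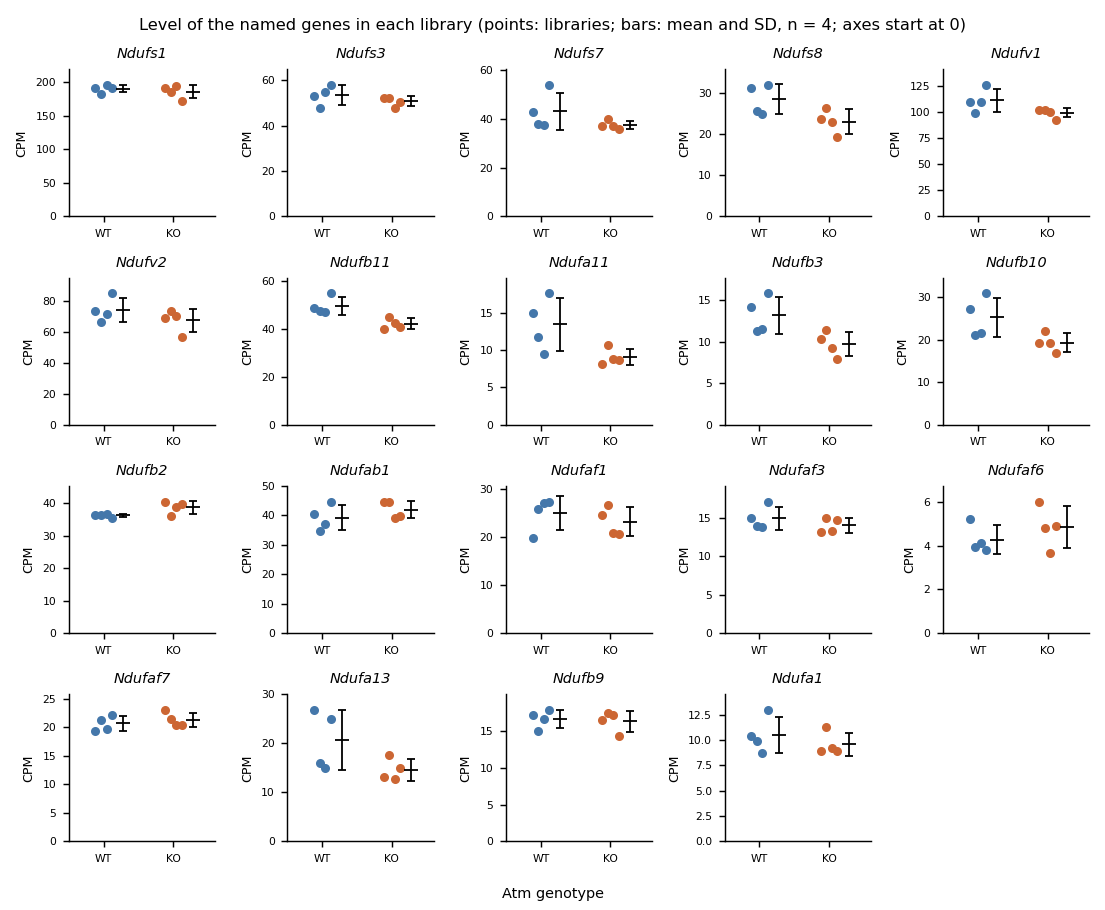
CPM of 19 named genes in each library (vertical axes, from 0), with Atm-WT mice in blue and Atm-KO mice in orange and the mean and SD of 4 mice beside them. The genotypes are apart for Ndufb11 alone in this plot, and for Ndufa11 and Ndufa13 Atm-KO mouse 7F lies among the Atm-WT mice.

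The Ndufaf assembly factors had counts per library from 109 to 3964, against 307 to 16749 for the subunits, and showed small differences of either sign. Ndufaf1, which works with Acad9, Ecsit and Tmem126b in the assembly of the membrane arm, was at 19.8, 25.9, 27.0 and 27.3 CPM in Atm-WT and at 24.6, 26.7, 20.8 and 20.7 CPM in Atm-KO mice. All Atm-KO values lay inside the Atm-WT range (log2 fold change −0.11, adjusted p = 0.647 by edgeR). Ndufaf3, which acts in the assembly of the Q module, was at 14.9, 13.8, 13.8 and 17.1 CPM in Atm-WT and at 13.1, 14.99, 13.3 and 14.7 CPM in Atm-KO mice (log2 fold change −0.09, adjusted p = 0.657). It was the 1 gene of the set on chromosome 9, which also carries Atm, at a distance of 55.0 Mb.

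Ndufaf6, a factor for the ND1 part of the enzyme, had the largest positive fold change. It was at 5.23, 3.92, 4.10 and 3.80 CPM in Atm-WT and at 6, 4.81, 3.65 and 4.91 CPM in Atm-KO mice, with mouse 2M above 3 of the Atm-KO mice (log2 fold change 0.18, standard error 0.18, adjusted p = 0.592 by edgeR). Ndufaf7, a methyltransferase of the mitochondrion, was at 19.3, 21.4, 19.8 and 22.2 CPM in Atm-WT and at 23.0, 21.4, 20.4 and 20.4 CPM in Atm-KO mice, with wide overlap (log2 fold change 0.04). The remaining factors, Ndufaf2, Ndufaf4, Ndufaf5 and Ndufaf8, had log2 fold changes from −0.07 to 0.04. The sign of the median of the 8 factors depended on the setting, from −0.12 with length and GC trends removed to 0.07 without mouse 32M. Of 12 further assembly factors tested, 8 were negative, with a median of −0.04. Dmac1 alone, a factor of the distal membrane arm, had an unadjusted p under 0.05 (10.6 ± 1.21 CPM in Atm-WT mice and 8.49 ± 0.655 CPM in Atm-KO mice, SD, n = 4 each, log2 fold change −0.32, edgeR adjusted p = 0.167). That is 8.33% of the 12, near the 8.48% of all genes tested that were lower at that limit.

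Of the 3 genes that share the name only, Ndufa4, now counted as a subunit of complex IV, was at 52.1, 34.5, 37.1 and 56.4 CPM in Atm-WT and at 34.6, 43.7, 37.6 and 32.6 CPM in Atm-KO mice. As for many subunits, mice 2M and 32M lay above all Atm-KO mice and mice 7M and 13M among them (log2 fold change −0.28, adjusted p = 0.332 by edgeR). Ndufa4l2, its paralogue, known as a hypoxia-induced gene, was low in all libraries, between 0.497 and 1.003 CPM, and 63.3% of its exon bases lie opposite Shmt2. Ndufb11b was listed at 0 in every library and was not tested.

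Per kilobase of its canonical transcript, Ndufb9 had the lowest level of the subunits in Atm-WT mice, at 3.96 ± 0.292 CPM per kb, with Ndufs6 at 4.08 ± 0.839 within its spread (SD, n = 4 each). In Atm-KO mice Ndufs6 lay below Ndufb9, at 3.51 ± 0.238 against 3.88 ± 0.339 CPM per kb (SD, n = 4 each). Ndufv1, at 66.9 ± 6.60, and Ndufa9, at 63.2 ± 4.97 CPM per kb in Atm-WT mice, were among the highest and overlapped within their SD. In CPM without regard to length, Ndufb9 was at 17.2, 14.95, 16.6 and 17.8 in Atm-WT and at 16.5, 17.4, 17.1 and 14.2 in Atm-KO mice, which is a difference of −0.03 on the log2 scale. The order depends on the transcript chosen, as per kilobase of all exons combined Ndufc2 was highest, at 43.4 CPM per kb, and Ndufb3 lowest, at 2.35 CPM per kb.

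Windows around the transcription start were read for 33 of the 37 subunits from RefSeq on GRCm38.p6 (300 bases each, 250 before the start and 50 from it on) and searched on both strands for letters known from promoters of respiratory chain genes. The letters AAGATGGC, the core bound by YY1, were in 7 of 35 subunit windows (20%), against 2.742% of 32817 windows of all genes. They are shown because they share place as well as letters. All 7 lay on the strand of the gene, starting between 23 and 39 bases from the start of transcription, and in all 7 the ATG within them was an annotated start codon of at least 1 GENCODE transcript. The letters stand in capitals below, with up to 10 bases on each side, and positions count from 1 at the start of transcription.
Ndufa3, chr7:3617385-3617412, + strand, position 23: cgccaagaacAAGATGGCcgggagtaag
Ndufa9, chr6:126849098-126849125, - strand, position 30: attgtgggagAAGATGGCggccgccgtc
Ndufb8, chr19:44555393-44555414, - strand, position 39: ggagaaggtgAAGATGGCtgcc
Ndufc1, chr3:51408916-51408943, - strand, position 23: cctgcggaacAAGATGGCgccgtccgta
Ndufs4, chr13:114388045-114388069, - strand, position 36: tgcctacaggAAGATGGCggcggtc
Ndufs6, chr13:73328433-73328459, - strand, position 34: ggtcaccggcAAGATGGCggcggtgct
Ndufs7, chr10:80249463-80249490, + strand, position 25: ggccgaggccAAGATGGCggcgctggcg

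The assembly factor Ndufaf8 held the same letters at position 11, where the ATG was no annotated start codon. The median log2 fold change was −0.20 for the 7 subunits with the letters, and 3 of the 7 were lower at an unadjusted p under 0.05 (Ndufa3, Ndufa9 and Ndufs4). The 26 others with a window had a median of −0.17, and 11 of the 26 were lower at that limit. Over all genes tested the share was 8.48%. Transcripts of Yy1 were at 110.5 ± 7.71 CPM in Atm-WT mice and 105 ± 1.78 CPM in Atm-KO mice (SD, n = 4 each, log2 fold change −0.08, edgeR adjusted p = 0.508).

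Other promoter letters were less frequent among the subunits or nearer to their background. The core of the NRF1 element, GCGCATGC, was in 3 of 35 windows (8.571%, Ndufa6, Ndufa8 and Ndufa11) against 2.709% of all windows, and the cyclic AMP response element TGACGTCA in 3 (8.571%, Ndufa10, Ndufa11 and Ndufb2) against 1.792%. Ndufa11, with the largest fold change, held both upstream of its start, and they are shown for that reason. The GC box GGGCGG was in 16 of the 35 windows (45.7%, against 35.6% of all), the E-box CACGTG in 3 (8.571% against 7.149%), the ETS letters CCGGAAGT in 1 (2.857% against 3.888%) and the ERR letters TCAAGGTCA in 0 (against 0.424%), a search that covers these letters in these windows only. Overlapping windows of Ndufa7 held the same E-box, so that by gene it was in 2 of 33 subunits (6.061%, against 8.091% of all genes). In Ndufa11 the NRF1 letters are read on both strands and overlap each other by 6 bases.
Ndufa11, NRF1 core, chr17:56717692-56717719, + strand, position −60: cctgcactgcGCGCATGCgcgcacgcct
Ndufa11, cyclic AMP response element, chr17:56717594-56717621, + strand, position −158: ttacctttccTGACGTCAcgggcgtctc

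The mitochondrially encoded partners of these subunits were lower as well. All 7 mt-Nd genes, the core subunits of the membrane arm made inside the organelle, had negative fold changes, with a median of −0.60 and 5 lower at an unadjusted p under 0.05, against 8.48% of all genes tested. At an adjusted p under 0.05 edgeR called 0 of them and DESeq2 4, all lower, against 2.44% of its genes. mt-Nd2 was at 445, 288, 251 and 272 CPM in Atm-WT mice 2M, 7M, 13M and 32M and at 178, 230, 168 and 152 CPM in Atm-KO mice 1M, 7F, 11M and 12M, with no overlap (log2 fold change −0.78, standard error 0.18, edgeR adjusted p = 0.0931). Relative to the Atm-WT mean, the median level of the mt-Nd genes was 0.48 in Atm-WT mouse 2M and between −0.26 and −0.09 in the other Atm-WT mice, 32M included, against −0.78 to −0.23 in the Atm-KO mice, of which 7F lay within the Atm-WT range. The median fold change was −0.42 without mouse 2M, with 4 genes lower at an unadjusted p under 0.05, against 6.68% of all genes tested. It was −0.66 without 32M, with 6 genes lower, against 6.96%. With trends of transcript length and GC content removed it was −1.09, with 7 lower, against 12.8%.

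Nuclear subunits of the other complexes also had negative medians, which were not tested against that of complex I. The median log2 fold change was −0.20 for 4 subunits of complex II, −0.20 for 9 of complex III, −0.27 for 10 of complex IV and −0.20 for 15 of ATP synthase. Every one of these genes was negative except Atp5mg. At an unadjusted p under 0.05, 3, 5, 6 and 5 of them were lower, against 8.48% of all genes tested. Atp5mg alone was higher at that limit (log2 fold change 0.27, edgeR unadjusted p = 0.0474), against 11.7% of all genes tested. At an adjusted p under 0.05 edgeR called 0 of these genes. Without mouse 32M these medians were −0.15, −0.15, −0.15 and −0.16, where that of complex I was −0.10. The genes lower at an unadjusted p under 0.05 then numbered 2, 2, 1 and 2, against 6.96% of all genes tested. Among 10 regulators of mitochondrial biogenesis the median was −0.06, and Nfe2l2, a regulator of antioxidant genes, alone had an unadjusted p under 0.05, at 20.5, 18.6, 14.8 and 15.7 CPM in Atm-WT and 10.9, 13.1, 13.8 and 10.5 CPM in Atm-KO mice (log2 fold change −0.52, standard error 0.13, edgeR adjusted p = 0.0981). Ppargc1a, the coactivator that drives biogenesis, was at 83.7 ± 3.86 CPM in Atm-WT mice and 78.1 ± 7.60 CPM in Atm-KO mice (SD, n = 4 each, adjusted p = 0.487).

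Long RNAs kept in the nucleus moved the other way. Of 10 such RNAs, 9 were positive and 8 were higher at an unadjusted p under 0.05, against 11.7% of all genes tested, with a median of 0.70, and Neat1, the scaffold of paraspeckles, rose from 52.4 ± 5.45 to 85.1 ± 8.04 CPM (SD, n = 4 each, log2 fold change 0.70, edgeR adjusted p = 0.0370). Their median level relative to Atm-WT was lowest in mouse 32M, at −0.29, where that of the subunits was highest, and between 0.44 and 0.99 in the Atm-KO mice. Without mouse 32M the median fold change of these RNAs was 0.53. Marker lists of several cell types had lower sums in Atm-KO libraries, with the ranges of the genotypes overlapping. This held for oligodendrocytes (6 of 6 markers negative, 2965 to 3955 CPM in Atm-WT and 1766 to 3108 CPM in Atm-KO libraries, the lowest being mouse 12M and the next 2875 CPM), microglia (6 of 6, 129.8 to 171 and 101 to 133 CPM), mural cells (6 of 6, 188 to 233 and 144 to 192 CPM) and choroid plexus (6 of 6, 789 to 1575 and 429.8 to 1224 CPM). For astrocytes, Bergmann glia included, the sums did not overlap (6 of 6, 2308 to 2499.6 and 2109 to 2306 CPM). Endothelium (4 of 6, 221 to 245 and 179 to 231 CPM), meninges (4 of 6, 96.98 to 129 and 81.3 to 111 CPM) and red blood cells (0 of 5, 5.87 to 42.9 and 7.80 to 49.5 CPM) had overlapping sums as well. The median log2 fold change was −0.55 for the choroid plexus markers, with 3 of 6 lower at an unadjusted p under 0.05, −0.34 for microglia (4 of 6), −0.30 for endothelium (3 of 6), −0.27 for mural cells (2 of 6), −0.19 for astrocytes (3 of 6), −0.19 for meninges (1 of 6), −0.18 for oligodendrocytes (2 of 6) and 0.61 for red blood cells (0 of 5). Over all genes tested, 8.48% were lower at that limit. Of the granule cell markers 2 of 6 were negative, with a median of 0.07 and 0 under that limit. Of the Purkinje cell markers 5 of 6 were negative, with a median of −0.11 and overlapping sums, and Pcp2 alone had an unadjusted p under 0.05 (67.4 ± 13.6 CPM in Atm-WT mice and 51.2 ± 9.14 CPM in Atm-KO mice, SD, n = 4 each, log2 fold change −0.40, edgeR adjusted p = 0.178). No marker of any list was at 0. The part of nuclear RNA and of these cell types in the result was not tested, and in bulk tissue fewer cells of a type and less RNA per cell cannot be told apart.

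**Figure D4:**
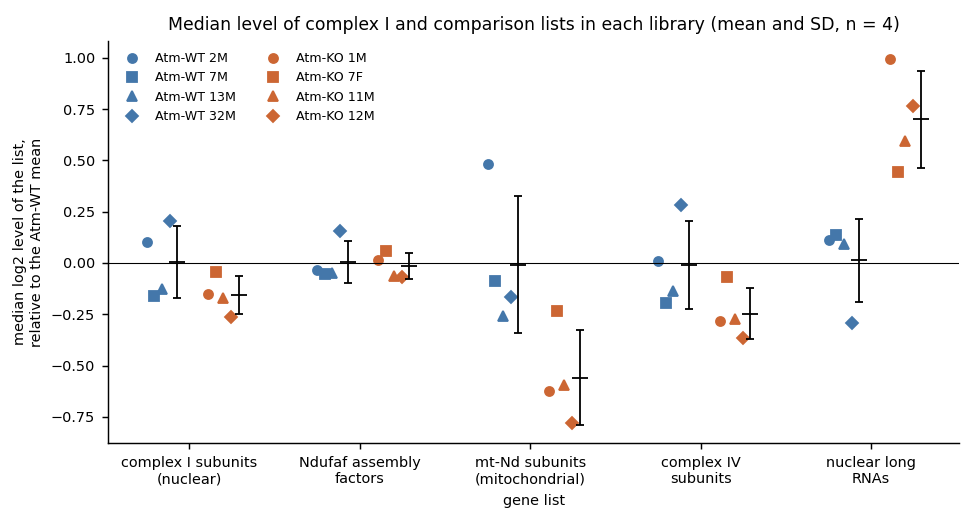
Median log2 level of each gene list in each library, relative to the Atm-WT mean of each gene (vertical axis), with 4 mice of each genotype and their mean and SD. For the nuclear subunits, Atm-WT mice 7M and 13M lie among the Atm-KO mice, and for the nuclear long RNAs all 4 Atm-KO mice lie above the Atm-WT mice.

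Many complex I subunits have short transcripts, and the medians of protein-coding genes were lower the shorter the class. Of the 18 subunits with a canonical transcript of at most 1000 bases, all were negative, with a median of −0.22 and 7 (38.9%) lower at an unadjusted p under 0.05, against a median of −0.14 and 18.2% among the 654 protein-coding genes of that length. For the 11 subunits between 1000 and 2000 bases the median was −0.13, with 5 (45.5%) lower, against −0.09 and 15.1% of 2470 genes. Between 2000 and 4000 bases 4 subunits had a median of −0.17, with 1 (25.0%) lower, against −0.07 and 12.97% of 5898 genes, and above 4000 bases 4 had a median of −0.09, with 1 (25.0%) lower, against −0.04 and 8.40% of 6300 genes. Across the 37 subunits, which share the same 8 libraries, log2 fold change correlated with log2 transcript length at Pearson's r = 0.29 (Spearman's rho 0.29), with log2 level at r = 0.46 (rho 0.46) and with GC content at r = −0.37 (rho −0.37). The subunits with lower levels or more GC thus had the more negative values. With trends of length and GC content removed in each library, the median of the subunits was −0.26 and 20 (54.1%) were lower at an unadjusted p under 0.05, where all genes tested had a median of −0.04 and 12.8% were lower at that limit.

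Exons of 24 subunits overlap a gene on the opposite strand. The 13 that do not were all negative, with a median of −0.18 and 6 lower at an unadjusted p under 0.05, against 8.48% of all genes tested. Near-identical copies of at least a stretch of the transcript were found elsewhere in the genome for 6 subunits (Ndufa12, Ndufab1, Ndufb4, Ndufs3, Ndufs5 and Ndufs6). Their values are uncertain to that extent, and the other 31 had a median of −0.18. For Ndufa12, the pseudogene Ndufa12-ps held 7.48% as many counts as the gene. For Ndufs6 the protein-coding gene Rps28, alike over 325 bases only (9.05% of the Ndufs6 transcript), held 90.8%. The assembly factor Ndufaf1 is uncertain in the same way, since stretches of 250 and 357 bases are shared with 4833420G17Rik and Bag1, which held 171% and 147% as many counts.

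Under each of the 22 settings the median of the subunits stayed negative, between −0.26 and −0.07. The number lower at an unadjusted p under 0.05 ranged from 2 (5.41%, against 6.05% of all genes tested) to 20 (54.1%, against 12.8%). An adjusted p under 0.05 was reached under DESeq2 only, by Ndufa11 and Ndufb3.

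**Figure D5:**
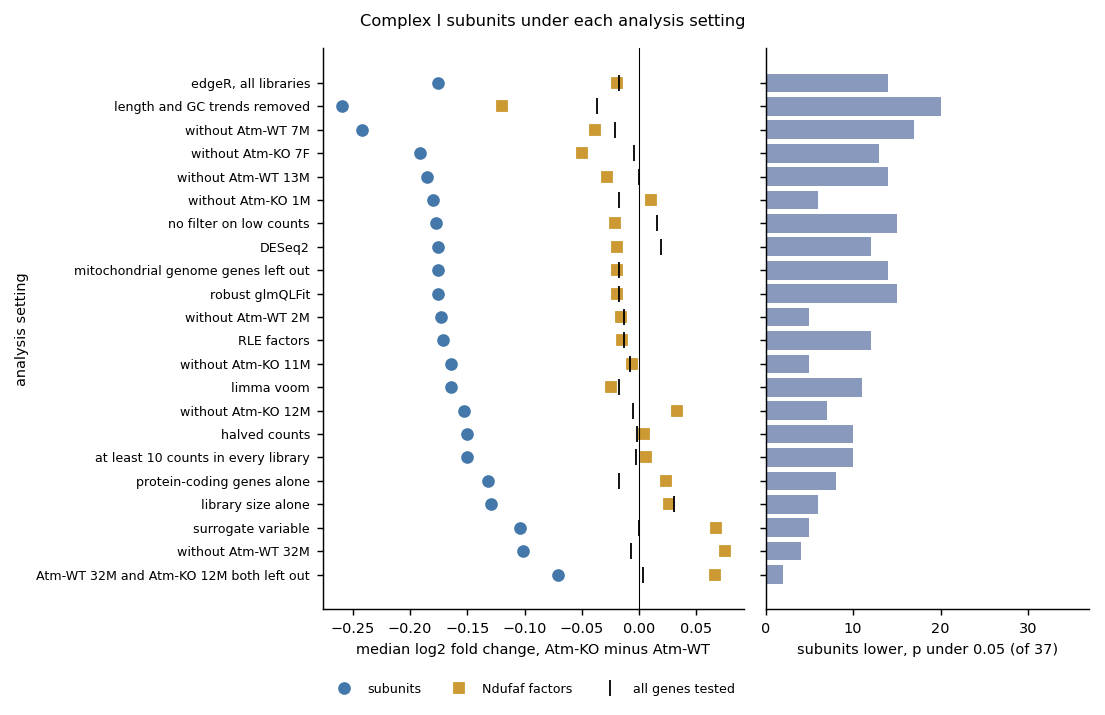
Left, median log2 fold change of the subunits, of the Ndufaf factors and of all genes tested under each of 22 settings, and right, the number of 37 subunits lower at an unadjusted p under 0.05. The subunit median is below that of all genes in every row, and the Ndufaf median changes sign. The count is 14 in the analysis reported, 4 without Atm-WT mouse 32M and 2 with mice 32M and 12M both left out. In these settings 8.48%, 6.96% and 6.05% of all genes tested were lower at that limit.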

How the data were processed

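Bulk RNA-seq of mouse cerebellum was grouped by the genotype of the labels (8 libraries, 1 a mouse). The authors had tissue sequenced by Novogene, used FastQC 0.11.9 for read quality (version per the labels), STAR for alignment to GRCm39 and featureCounts for counting on GENCODE genes, and deposited the raw counts per gene. Strand, read pair and multimapping settings are not given in the sources used here. Between 67.3% and 73.3% of counts from 1 to 50 were even, so a count may be a read and not a fragment.

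All genes were filtered (filterByExpr, 22423 genes), scaled by TMM and tested with the quasi-likelihood functions of edgeR 4.0.16 in R 4.3.3, with genotype as the only term and Benjamini-Hochberg adjustment over all genes tested (threshold 0.05). The labels pair no mice across genotypes. Levels relative to Atm-WT are on the log2(CPM + 0.5) scale. Overlaps and lengths came from GENCODE vM39 (98.8% of identifiers matched), copies were transcripts of other genes at 97% identity or more over at least 150 bases, and promoter windows came from RefSeq (4 subunits not analysed).

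Values in every library are given for the nuclear core subunits, the 5 subunits with the smallest p in each direction (only 2 were positive), 2 Ndufaf genes in each direction, the 2 largest fold changes, the highest and lowest level per length, and X-linked genes. Single values of 1 gene that the rule names were left out of text and plots, while counts and medians include it. Members, lists and rules were chosen with earlier results of these data known. Coa1, Atp5md and Atp5mpl matched no identifier. Alternatives were DESeq2 1.42.0, limma voom (limma 3.58.1), RLE factors, library size alone, protein-coding genes alone, other filters, halved counts, robust fitting, mitochondrial genes left out, a surrogate variable (sva 3.50.0), length and GC trends removed, and each library left out.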

Additional observations from a re-analysis of the deposited data

Results flagged for a closer look

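Of 98 groups of 4 libraries examined, 5 had a library set apart from the other 3 by Dixon's criterion at the 95% level, which chance alone does in about 1 of 20 groups. In 3 subunits it was Atm-KO mouse 7F that was high. Ndufa1 was at 11.2 CPM there and between 8.94 and 9.17 CPM in the other Atm-KO mice, Ndufa12 at 19.4 CPM against 13.7 to 14.2 CPM, and Ndufb8 at 15.4 CPM against 12.3 to 12.8 CPM. Mouse 7F is the 1 mouse labelled F, and its sex and other features cannot be told apart. Atm-WT mouse 32M was high in the other 2 groups. Ndufc1 was at 26.6 CPM there and between 19.6 and 20.5 CPM in the other Atm-WT mice, and the median log2 level of the 8 Ndufaf assembly factors, relative to the Atm-WT mean, was 0.155 there and between −0.0520 and −0.0366 in the others.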

How the results depend on the processing

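The count of 14 subunits lower at an unadjusted p under 0.05 was 6 with library size alone (16.2%, against 4.66% of all genes tested). It was 8 with TMM on protein-coding genes alone (21.6% against 7.40%) and 5 with a surrogate variable (13.5% against 5.78%). When each library was left out in turn, the count was between 4 (10.8% against 6.96%, without Atm-WT mouse 32M) and 17 (45.95% against 8.63%, without Atm-WT mouse 7M). With mice 32M and 12M both left out, an alternative chosen after seeing the data, it was 2 (5.41% against 6.05%). The cause was not tested. The count of 0 subunits and assembly factors at an adjusted p under 0.05 became 2 under DESeq2 and stayed 0 under the other settings. The median log2 fold change of the subunits was negative under every setting, and that of the assembly factors had either sign. The labels name no batch, so none could be fitted. Replicates are separate mice, and the strand setting and the unit of a count remain unknown.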
